A study of Mus musculus with 2 samples.

Results

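Potassium channel genes, whose symbols begin with Kcn, were examined in brain RNA of mice without the gene for interleukin-18, an inflammatory cytokine, and in that of wild-type mice. A gene belonged to the family when at least 1 array probe carried an accession that maps to such a symbol, and Kcnj13, Kcne2 and Kcnj8 were left out. This gave 94 of the 20660 named genes with a probe. Of these, 78 counted as measured because both arrays read 1 or more of their probes well above background, among 15738 measured genes in all. Both groups were male mice on the C57Bl/6 N background at 12 weeks of age, one of genotype Il18+/+ and the other Il18-/-. Total RNA of 7 mice was pooled per genotype and each pool was hybridised to 1 one-colour array, so each genotype had 1 sample. The labels disagree on the tissue: hippocampus is given for the samples, whereas prefrontal cortex appears in the extraction protocol and in some of the design description.

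Potassium channels let potassium leave or enter the cell and so set the resting potential, end action potentials and shape how often a neuron fires. Voltage-gated channels open on depolarisation, inward rectifiers and tandem-pore channels hold the membrane near rest, and other channels open when calcium or sodium rises inside the cell. Auxiliary subunits carry no pore and change the gating or traffic of the subunits that do. In hippocampus and cortex these channels control spike width, adaptation and dendritic excitability, and in astrocytes they take up the potassium that neurons release.

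A level is the log2 signal of a gene after subtracting its array's 75th percentile, and a difference is the Il18-/- level less the Il18+/+ level. Because 1 pool stands for each genotype, the differences could not be checked or tested against replicates, and precision is limited by having 1 array per pool. Levels of different genes come from different probes and were ranked only to form quartiles and groups of genes of like level. In these bulk samples fewer cells of a type and less RNA per cell cannot be told apart. On probes with at least 10 spots the difference had a median standard deviation of 0.07 over spots (193 probes), an error that is technical and within the arrays. Among the 23 potassium channel genes with several measured probes, the probes of a gene scattered with a median standard deviation of 0.13.

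Few potassium channel genes differed by 1.5-fold or more between the pools. Of the 78 measured members, 34 were higher and 44 lower in Il18-/-, with a median difference of -0.04, beside 47.4% of all measured genes lower and a median of 0.01 over all of them. The median turned to 0.02 under 1 of 13 alternative settings and to -0.34 under scaling by the spiked-in control RNAs, which lowers every gene by 0.30. A total of 57 members, or 73.1%, differed by less than 0.25 on the log2 scale, as did 78.7% of all measured genes. The median size of the difference, regardless of sign, was 0.17 over the members and 0.12 over all measured genes. Of the members, 10 (12.8%) lay outside the range from the 5th to the 95th percentile of all measured genes. At 1.5-fold, 1 member was higher (Kcnk16) and 1 lower (Kcnk9), or 2.56% of the members, and the share over all measured genes was 4.26% (1.68% higher and 2.57% lower). Kcnk16 was also the only member at 2-fold, against 0.648% of all measured genes at least 2-fold higher and 0.451% at least 2-fold lower.

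**Figure D1:**
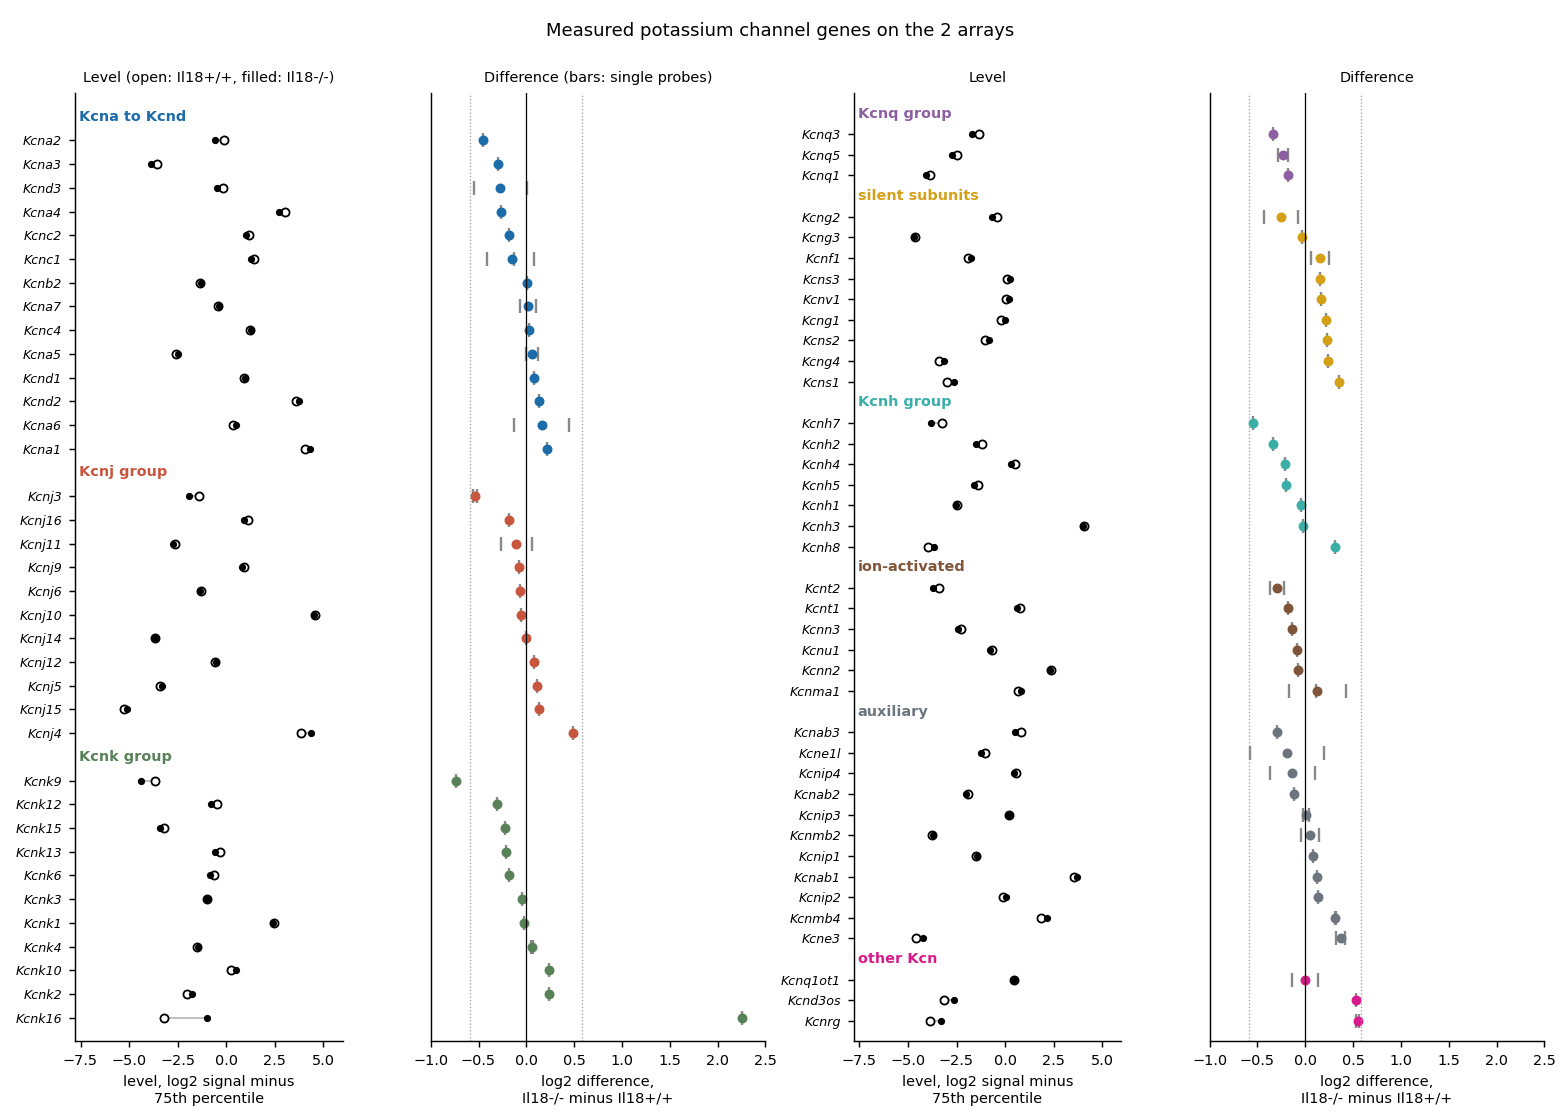
Levels of 75 of the 78 measured potassium channel genes on both arrays (left panels of each pair, log2 signal minus the 75th percentile; open circles Il18+/+, filled circles Il18-/-) and the log2 difference Il18-/- minus Il18+/+ (right panels; circles are genes, grey bars single probes, dotted lines 1.5-fold). Apart from Kcnk16 at 2.26 and Kcnk9 at -0.74, every gene drawn lies between the dotted lines.

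The subgroups lay on different sides of 0. All 4 measured Kcnq genes and 6 of 7 Kcnh genes were lower in Il18-/-, with medians of -0.21 and -0.20. Their median levels were -2.05 and -1.48, beside -0.22 over all measured genes. Of all measured genes 47.4% were lower, but 59.5% in the lowest quartile by level and 59.1% in the second. Of 9 silent subunits, 7 were higher, with a median of 0.16, which became -0.14 under the spike-in scaling. The Kcna to Kcnd genes were split, 8 higher and 8 lower.

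Several probes that were all past 0.3 on 1 side read 4 members, namely Kcnj3, lower in Il18-/-, and Kcnmb4, Kcnrg and Kcne3, higher. They were singled out after their values were seen. The promoters of the 3 with 1 start site in the RefSeq table (GRCm38.p6) are printed here as a description. Their part in the differences was not tested. Each runs from 250 bases before to 50 bases after the start, 5′ to 3′ on the gene's strand, at chr2:55435720-55436019 (+) for Kcnj3, chr10:116473474-116473773 (-) for Kcnmb4 and chr14:61607207-61607506 (+) for Kcnrg, and capitals mark the GC box GGGCGG on either strand.
Kcnj3: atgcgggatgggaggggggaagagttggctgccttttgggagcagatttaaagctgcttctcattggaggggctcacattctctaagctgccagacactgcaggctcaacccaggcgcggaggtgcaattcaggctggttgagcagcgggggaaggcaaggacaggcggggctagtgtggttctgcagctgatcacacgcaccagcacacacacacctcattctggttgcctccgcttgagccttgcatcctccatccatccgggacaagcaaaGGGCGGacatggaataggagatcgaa
Kcnmb4: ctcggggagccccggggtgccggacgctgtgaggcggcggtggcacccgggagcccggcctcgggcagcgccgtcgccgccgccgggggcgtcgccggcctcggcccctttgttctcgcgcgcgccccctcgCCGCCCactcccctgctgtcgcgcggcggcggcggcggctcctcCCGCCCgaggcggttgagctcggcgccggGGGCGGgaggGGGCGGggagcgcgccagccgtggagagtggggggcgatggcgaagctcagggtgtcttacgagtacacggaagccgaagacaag
Kcnrg: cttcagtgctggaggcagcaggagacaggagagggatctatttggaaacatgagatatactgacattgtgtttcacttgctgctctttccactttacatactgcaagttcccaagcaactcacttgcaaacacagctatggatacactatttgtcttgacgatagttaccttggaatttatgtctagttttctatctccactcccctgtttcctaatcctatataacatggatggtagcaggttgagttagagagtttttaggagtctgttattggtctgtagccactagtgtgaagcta

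The 3 promoters differ in composition. The Kcnmb4 promoter is 79.0% G or C and holds 48 CG dinucleotides and 4 GC boxes, while the Kcnrg promoter is 41.7% G or C with 1 CG dinucleotide and no GC box. The Kcnj3 promoter lies between, at 57.7%, with 10 CG dinucleotides and 1 GC box. Over the family, the table held a promoter for 69 of the 94 members. A GC box was found in 36 of these 69 (52.2%) and in 35.9% of all 27025 promoters of the same length, counting the first start site of each gene. The TATA box TATAAA was found in 2 of the 69 (2.90%) and in 14.2% of all promoters, and in none of the 3 printed here. The 69 promoters had a median of 60.3% G or C and 10 CG dinucleotides, and all 27025 had 52.7% and 7. The shares with a box were not matched for this composition. These matches describe the letters and were set against no measurement of binding.

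Among voltage-gated pore subunits of the Kcna to Kcnd groups, 17 had a probe and 16 were measured, with a median difference of -0.02 and a range from -0.45 to 0.22. No member reached 1.5-fold. Kcna2, a subunit of axonal channels that limit repetitive firing, went from -0.10 in Il18+/+ to -0.55 in Il18-/-, a difference of -0.45 or 1.37-fold lower. Kcna1, which assembles with Kcna2 in the same axonal channels, went from 4.08 to 4.30 and so lay on the other side, at 0.22. Kcna4, an inactivating subunit of axons and terminals, went from 3.01 to 2.75, and Kcna3, better known from lymphocytes, from -3.57 to -3.87. Both were lower in Il18-/-, by 1.20-fold and 1.23-fold, each by 1 probe, and with cyclic loess Kcna3 was at -0.17.

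A-type channels of the Kcnd group differed less than Kcna2 by their means. Kcnd2, the dendritic A-type subunit of pyramidal neurons, read 3.61 and 3.74, or 0.13. The gene for the related subunit, Kcnd3, was read by a pair of probes that disagreed, one at -0.55 and the other at 0.0036, with a mean of -0.27. The first was dim, at -3.63 in Il18+/+, and the second read 3.27 there. Kcnc1 encodes a channel that lets fast-spiking interneurons repolarise quickly. It went from 1.43 to 1.28, with 3 probes between -0.41 and 0.08. Beside it, all 6 interneuron markers were lower, with a median of -0.18, and their part in the Kcnc1 value was not tested.

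The Kcnq genes encode slowly opening channels whose current, the M-current of neurons, is shut off by muscarinic receptors. Of 5 genes, 4 were measured. Kcnq3 went from -1.34 in Il18+/+ to -1.68 in Il18-/-, a difference of -0.34 or 1.26-fold lower. Kcnq5, a further neuronal member, was lower by both of its probes, at -0.28 and -0.18. Kcnq1, known from heart and epithelia, went from -3.86 to -4.05, a difference of -0.18 that was -0.05 with cyclic loess. Every measured member was thus below 0 by its mean, and the subgroup median of -0.21 ranged from -0.28 to -0.15 over 13 alternatives without the spike-in scaling.

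In the Kcnh group, which holds the ether-a-go-go channels and their erg and elk relatives, 7 of 8 genes were measured and 6 were lower. Kcnh7, an erg channel of neurons, went from -3.26 to -3.81, a difference of -0.55 or 1.47-fold lower, which was -0.35 with normexp correction. Kcnh2, the erg channel also known from heart, went from -1.18 to -1.51, or 1.26-fold lower. The third erg gene, Kcnh6, was not well above background on either array. Kcnh1, the ether-a-go-go channel, differed by -0.04 and Kcnh3, an elk channel of forebrain neurons, by -0.03. Kcnh8, also an elk channel, was the 1 member on the other side, going from -3.95 to -3.64, a difference of 0.31. A second probe of Kcnh8, above background in Il18+/+ only, went the other way, from -5.28 to -5.53, and with that probe included the difference was 0.03. The median of -0.20 became -0.13 relative to genes of like level and -0.07 with normexp background correction.

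Silent subunits do not form channels alone and modify Kcnb channels instead. Of the 10 genes 9 were measured, and 7 were higher in Il18-/-. Kcns1 went from -2.99 to -2.64, a difference of 0.35 or 1.27-fold higher. The related Kcns2 went from -1.03 to -0.80 and Kcng4 from -3.39 to -3.15, differences of 0.23 and 0.24. With normexp correction Kcng4 was at 0.09. Kcnv1, another silent subunit of brain, differed by 0.16. Kcng2 was lower by both of its probes, at -0.44 and -0.08. No silent subunit gene reached 1.5-fold, and the subgroup median ranged from 0.10 to 0.22 over the alternatives apart from the spike-in scaling.

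Of the 13 inward rectifier genes of the Kcnj group 11 were measured, with 7 lower, a median of -0.06 and no member at 1.5-fold. Kcnj3, a subunit of the channels that G proteins open in response to inhibitory transmitters, was read by a pair of probes. One went from -0.91 to -1.43 and the other from -1.87 to -2.42. Their differences of -0.52 and -0.55 gave a mean of -0.54, or 1.45-fold lower, and it ranged from -0.60 to -0.36 over the alternatives without the spike-in scaling. The partner subunits with which Kcnj3 assembles differed less. Kcnj6 read -1.30 and -1.37, a difference of -0.07 with a standard deviation of 0.10 over 10 spots, and Kcnj9 read 0.90 and 0.82.

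The inward rectifier with the highest difference was Kcnj4, a strong rectifier of forebrain neurons, which went from 3.88 to 4.36 by 1 probe, a difference of 0.49 or 1.40-fold higher. The related Kcnj2 was not well above background, with levels of -5.14 and -5.12. Kcnj10, the channel by which astrocytes take up potassium, read 4.60 and 4.54, a difference of -0.06. Its astrocytic partner Kcnj16 went from 1.12 to 0.94, or 1.13-fold lower. Beside these, 6 of 10 astrocyte markers were higher and 4 lower, with a median of 0.05. Kcnj11 forms the pore of the ATP-sensitive channel. Its probes differed by 0.06 and -0.27, from Il18+/+ levels of -0.97 and -4.31. Abcc8, the sulfonylurea receptor that surrounds the Kcnj11 pore, differed by 0.10.

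Tandem-pore channels of the Kcnk group carry leak currents. Of 14 genes, 11 were measured, 7 of them lower, with a median of -0.04. The extremes of the whole family both lay here. Kcnk16, an alkaline-activated channel known from pancreas, went from -3.22 in Il18+/+ to -0.96 in Il18-/-, a difference of 2.26 or 4.78-fold higher, by 1 spot of 1 probe. Of the 18 spots nearest to it on the glass, 9 were also at least 2-fold higher in Il18-/-, up to a log2 difference of 6.65. All 9 were well above background on at least 1 array. This probe was the only one of the family in such a local cluster of spots, and the part of the cluster in the Kcnk16 value was not tested. Without clustered probes 0 of 77 members were at least 1.5-fold higher.

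**Figure D2:**
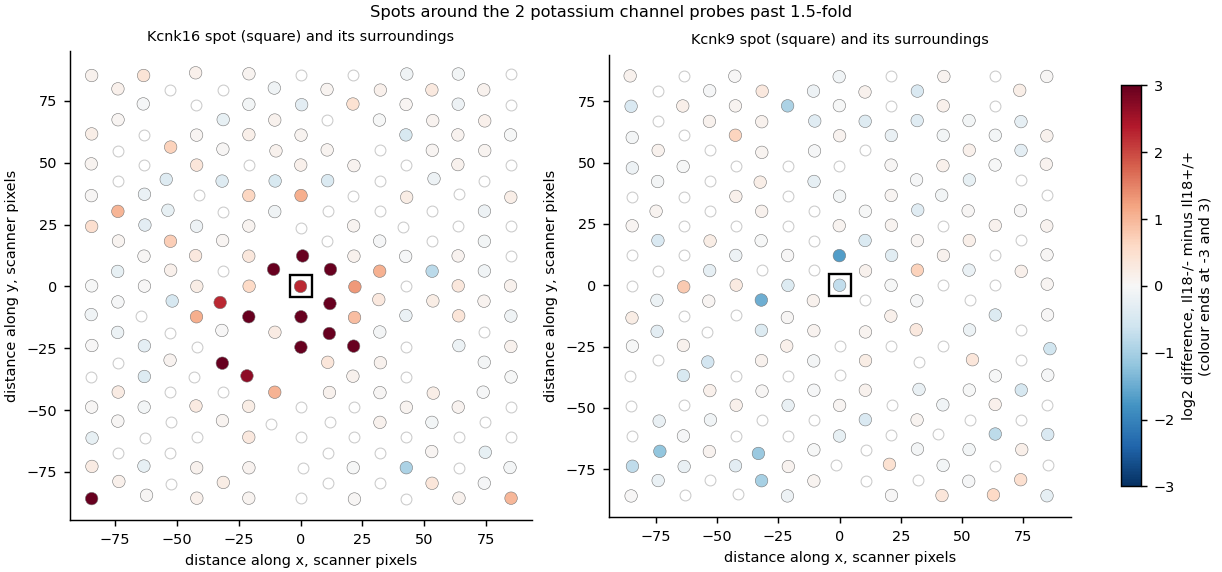
Spots around the Kcnk16 spot (left) and the Kcnk9 spot (right), placed by distance in scanner pixels and coloured by the log2 difference Il18-/- minus Il18+/+; grey open circles are spots not well above background on either array. Around Kcnk16, 9 of the 18 nearest spots are at least 2-fold higher, while around Kcnk9 the nearest 18 hold 2 that are at least 2-fold lower, 1 of them well above background.

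Kcnk9, an acid-sensitive leak channel of neurons, went from -3.65 to -4.39, a difference of -0.74 or 1.67-fold lower, by 1 probe at a dim level. On the median signal it was -0.35 with normexp background correction and -0.44 with none, both short of 1.5-fold. The other acid-sensitive channel named here, Kcnk3, differed by -0.04. Among mechanosensitive channels, Kcnk2 and Kcnk10 were both higher by 0.24, and Kcnk4 differed by 0.06 with probes at 0.05 and 0.07. Kcnk1, a weak inward rectifier of neurons, astrocytes and choroid plexus, read 2.45 and 2.42. Kcnk12, which encodes a subunit that is silent on its own, went from -0.45 to -0.76, or 1.24-fold lower.

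The subgroup of channels opened by calcium or sodium inside the cell also held Kcnu1, placed there by symbol and not by what opens it. In this subgroup 6 of 8 genes were measured, 5 of them lower, with a median of -0.11 and none at 1.5-fold. Kcnu1 was among the lower ones, at -0.09. Kcnma1, the large-conductance channel that narrows action potentials, was read by 3 probes designed on different transcripts, which gave -0.17, 0.12 and 0.43. Their mean was 0.13, and they span more than 1.5-fold between them. Kcnn2, a small-conductance channel of the afterhyperpolarisation, differed by -0.08 with a standard deviation of 0.06 over 10 spots, and Kcnn3 went from -2.28 to -2.43. Kcnn1 was not well above background, with levels of -5.75 and -6.04. The sodium-activated channels Kcnt1 and Kcnt2 were both lower. Kcnt1 went from 0.79 to 0.61, and Kcnt2 read -0.23 and -0.37 by its probes, or 1.23-fold lower on average. The mean of -0.30 for Kcnt2 was -0.06 with normexp correction and -0.09 without background correction.

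Auxiliary subunits had 11 of 15 genes measured, 7 of them higher, with a median of 0.05 and a range from -0.30 to 0.37. Kcnmb4, the beta subunit that sets the gating of Kcnma1 channels in neurons, was read by probes that went from 3.99 to 4.29 and from -0.26 to 0.06. Both probes were higher, by 0.31 and 0.32, or 1.24-fold higher on average. Kcne3, a small subunit that modifies Kcnq and Kcnc channels, was higher by 0.32 and 0.42 at a dim mean level of -4.61 in Il18+/+. Its mean of 0.37 was 0.09 with normexp correction and 0.11 without background correction. Kcne1l was read by probes on opposite sides, at 0.20 and -0.57, from Il18+/+ levels of -0.05 and -2.00.

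The cytosolic partners of Kcna channels differed in direction. Kcnab1 went from 3.57 to 3.69 and Kcnab2 from -1.89 to -2.01, while Kcnab3 went from 0.80 to 0.50, or 1.23-fold lower. The Kcnip genes encode calcium-binding partners of Kcnd channels. Kcnip1 differed by 0.08 with a standard deviation of 0.12 over 10 spots, Kcnip2 by 0.13 and Kcnip3 by 0.01. The probes of Kcnip4 differed by 0.10 and -0.37, from Il18+/+ levels of 2.98 and -1.82.

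A further 4 members carry a Kcn symbol without encoding a channel subunit, and 3 were measured. Kcnrg, whose product restrains the assembly of voltage-gated channels, was read by a pair of probes that went from -4.90 to -4.33 and from -2.83 to -2.29. The differences of 0.56 and 0.53 gave a mean of 0.55, or 1.46-fold higher. Kcnd3os, by its name a transcript from the strand opposite Kcnd3, went from -3.15 to -2.62 by 1 probe, or 1.45-fold higher. Both depended on the processing. Kcnrg ranged from 0.28 with normexp background correction to 0.64 with cyclic loess, and Kcnd3os from 0.37 to 0.63 under the same settings. Kcnq1ot1, the imprinted antisense RNA of the Kcnq1 locus, read 0.45 on both arrays, with probes at 0.13 and -0.14.

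**Figure D3:**
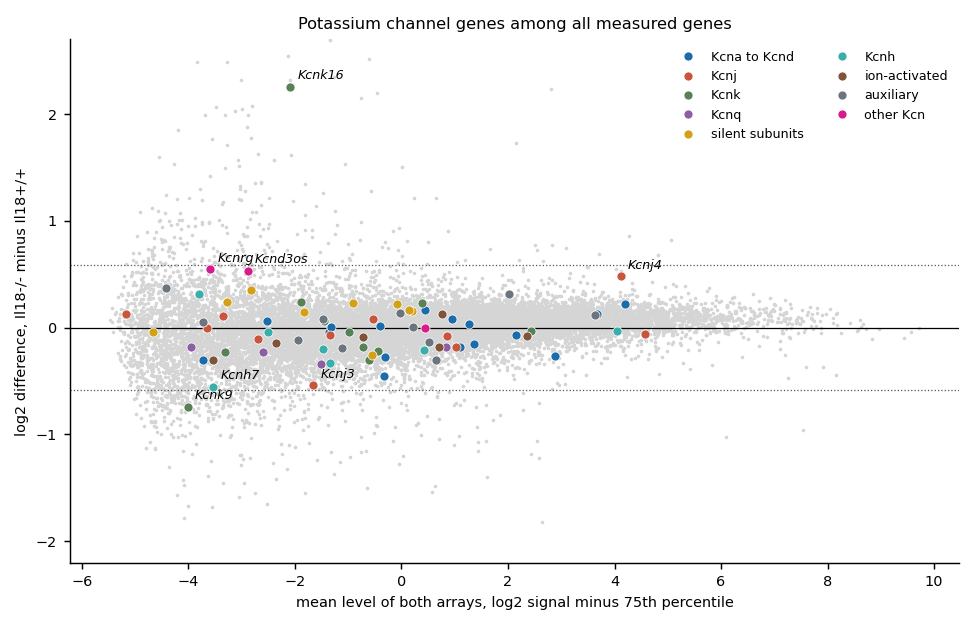
Log2 difference Il18-/- minus Il18+/+ against the mean level of both arrays for all measured genes (grey) and the potassium channel genes (coloured by subgroup); dotted lines mark 1.5-fold, and 26 genes lie beyond the vertical axis. Members past 0.45 in size are named, of which only Kcnk9 and Kcnk16 lie outside the dotted lines.

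How the differences varied with level was compared because dim genes on these arrays were lower in Il18-/- more often. The lowest quartile of all genes by level had a median of -0.08 and the highest quartile 0.07. The 22 members in the lowest quartile had a median of -0.02, and the 11 in the highest quartile had a median of -0.03, with 6 of 11 lower beside 26.1% of all genes there. Subtracting the median of genes of like level left the Kcnq median at -0.18 and the silent subunit median at 0.22. Of the 23 members with several measured probes, 11 had all probes on 1 side of 0 and 12 did not, and over all genes with several probes 55.7% were on 1 side.

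**Figure D4:**
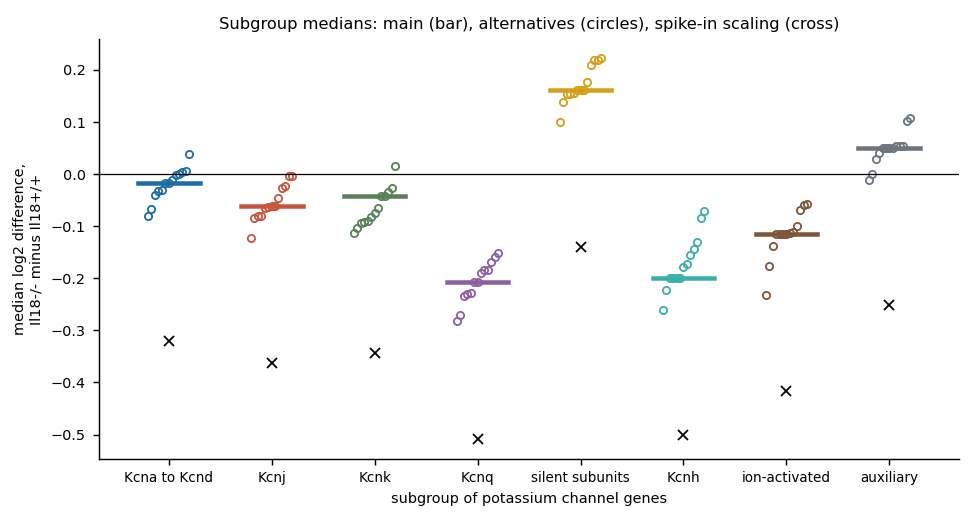
Median log2 difference Il18-/- minus Il18+/+ of each subgroup in the main processing (bars), under 13 alternatives (circles) and under scaling to spike-in controls (crosses). The Kcnq, Kcnh, Kcnj and ion-activated medians stay below 0 in every setting drawn, and the silent subunit median is above 0 in all but the spike-in scaling.

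Of the 16 members that were not measured, 15 were not well above background on either array. Among them were Kcna10, Kcne1, Kcnh6, Kcnj1, Kcnj2, Kcnk5, Kcnk7, Kcnk18, Kcnmb1, Kcnmb3, Kcnmb4os1, Kcnn1, Kcnn4 and Kcnv2. Kcne4, a subunit that modifies Kcna and Kcnq channels, was above background in Il18+/+ only, by 1 of its probes. That probe read -5.05 beside -5.43 in Il18-/-, a difference of -0.37 by 1 spot. The other Kcne4 probe, well above background on neither array, differed by 0.02. Where a fold is given below as nominal, it is not a strict bound. The nominal fold takes, for the dim array, whichever is higher of the probe's signal there and the lowest signal called well above background. Probes not called so can read above that lowest signal, such as Kcnj2 at -5.12 in Il18-/-. Kcnj15, at -5.24 and -5.11, was just inside the threshold and counted as measured.

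Partners of the channels and genes that move potassium were compared next, from a list of 34 genes of which 30 were measured. Of these 21 were lower and 9 higher, with a median of -0.11, beside 47.4% of all measured genes lower and a median of 0.01. In each direction 1 reached 1.5-fold, against 1.68% of all measured genes higher and 2.57% lower. Lrrc55, which encodes a gamma subunit of Kcnma1 channels, went from -1.21 to 0.07, or 2.43-fold higher. Beside it, all 8 measured medial habenula markers lay above 0, with a median of 1.36, and their part in the Lrrc55 value was not tested. Abcc9, the sulfonylurea receptor of vascular ATP-sensitive channels, went from -2.32 to -2.94, or 1.54-fold lower, by 1 probe. Kcnj8, the pore that Abcc9 surrounds, differed by 0.17. Both are markers of pericytes and smooth muscle, and of the 6 other markers of that list 4 were lower and 2 higher, with a median of -0.18. Their part in the Abcc9 value was not tested.

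Other members of that list had smaller differences. Hcn2, which encodes a pacemaker channel, differed by -0.08. The potassium-chloride cotransporter gene Slc12a5, which keeps neuronal chloride low, read -0.19 as a mean of probes at -0.44 and 0.05. Dpp6 and Dpp10, partners of Kcnd channels, differed by 0.16 and -0.05.

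The pools also differed in markers of other tissue. All 15 choroid plexus markers were lower in Il18-/-, with a median of -1.18 and a range from -1.65 to -0.93, and 7 of 9 measured liver markers were higher, with a median of 2.90. Of the myelin markers 9 of 10 were lower, with a median of -0.20. The 15 choroid plexus markers include Kcnj13 and Kcne2, potassium channel genes that are not counted among the 94, at 2.63-fold and 2.22-fold lower, and the other 13 had a median of -1.18. The part of these tissues in the values of the 94 genes was not tested. Markers of dentate granule cells, CA pyramidal cells and neocortex were all measured on both arrays, 6 of 6 in each list, and so do not settle which region was taken. The probe for Il18, the targeted gene, was 2.80-fold lower in Il18-/- and still well above background, and its place relative to the deleted part is not known here.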

How the data were processed

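Cy3-labelled RNA of 1 pool per genotype was read on 1 array each. Per the file headers, the deposited intensity values were made with Agilent Feature Extraction 10.10.1.1, which subtracted background and removed spatial trends within each array, without scaling between arrays, on a design built on mm9. Control spots and spots flagged as outliers on either array were left out, and no remaining spot was saturated. The 75th percentile of log2 intensity was subtracted per array, spots of 1 probe were averaged, and a gene was the mean of its probes well above background on both arrays. Matching unversioned accessions to the RefSeq gene table (GRCm38.p6) gave names to 27234 of 55675 probes. The members, lists and naming rule (up to 3 of the largest differences per subgroup, members past 1.5-fold or above background on 1 array only, members whose probes differ in sign and span 1.5-fold, and 43 genes known from brain) were chosen with earlier results of these data known. Single values of a few genes are not reported here, though counts and medians include them. No test was made with 1 pool per genotype. Calculations were tested on simulated data. Of 14 alternatives, 1, relative to genes of like level, was chosen after seeing the data. The files' median signal stood in for the mean signal. In the value table the authors deposited, each intensity equals the scanner's processed one multiplied by 2.05 (Il18+/+) or 1.92 (Il18-/-). It is linear and uncentred, and its column medians are 151.5 and 139.5. What set the constants is unknown. Normalization alternatives used limma 3.58.1 in R 4.3.3, and the rest Python 3.11.15 with pandas 2.3.3 and numpy 2.4.6.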

Additional observations from a re-analysis of the deposited data

Results flagged for a closer look

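Of the 128 probes of potassium channel genes, 103 were well above background on both arrays and 4 in Il18+/+ only. The gene values above leave these 4 out. Over all 55675 probes, 67.2% were well above background in Il18+/+ and 65.4% in Il18-/-, and 35635 were so on both. The Kcne4 probe read -5.05 in Il18+/+. A second probe of Kcng1 read -5.12 there and -7.20 in Il18-/-, nominally 1.31-fold higher in Il18+/+, while its measured probe was higher in Il18-/- by 0.22. A second probe of Kcnh8 read -5.28 and one of Kcnn3 -5.21, nominally 1.17-fold and 1.22-fold higher in Il18+/+. All 4 are close to the lowest signal that counted as well above background, which was -5.56 in the wild-type pool and -5.50 in the other.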

How the results depend on the processing

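No paired analysis was possible because each genotype had 1 pool and the labels give no replicate numbers. Scaling to spike-in controls lowered the median of all genes to -0.29 and left 10 members at least 1.5-fold lower, 70 lower at any size, a family median of -0.34 and subgroup medians of -0.32 (Kcna to Kcnd), -0.36 (Kcnj), -0.34 (Kcnk), -0.51 (Kcnq), -0.14 (silent), -0.50 (Kcnh), -0.42 (ion-activated) and -0.25 (auxiliary). Members at least 1.5-fold higher, 1 in the main processing, were 2 with quantile normalization, 3 with median centring, cyclic loess, no filter on dim probes or relative to genes of like level, and 0 without clustered probes. Members at least 1.5-fold lower, also 1, were 3 with the deposited values or no filter, and 0 with the stricter filter, normexp correction or no background correction. Over all genes, 1.5-fold was reached by 265 higher and 405 lower in the main processing, 114 and 105 with normexp, 132 and 147 without background correction, 814 and 1356 with no filter, 156 and 195 with the stricter filter, 340 and 271 with loess, 321 and 318 with median centring, 312 and 324 with quantile normalization and 129 and 1728 with spike-in scaling. The median difference of the Kcnh group was -0.072 with normexp on the median signal. With quantile normalization, median centring, loess and genes of like level they were 4.04%, 4.06%, 3.88% and 3.94%, and with spike-in scaling 11.8%. The median difference of the Kcnh group was -0.072 with normexp on the median signal. Causes were not tested. Kcnk16 ranged from 1.54 to 2.33 and Kcnk9 from -0.80 to -0.35 without spike-in scaling. Dim signal limits the members near background.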

Other observations

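Sodium and calcium channel genes, which carry the depolarising currents that potassium channels oppose, were set beside the family as a description. Of 10 measured sodium channel genes 6 were lower in Il18-/-, with a median of -0.07, and of 24 calcium channel genes 14 were lower, with a median of -0.03. Over all measured genes 47.4% were lower, with a median of 0.01. No gene of either family reached 1.5-fold, as 4.26% of all measured genes did. Scn8a, a sodium channel of axon initial segments, was lower by each of its 3 probes, between -0.60 and -0.49, or 1.44-fold lower on average. Cacna1g, a low-threshold calcium channel known from thalamus, was lower by both of its probes, at -0.29 and -0.28, next to a thalamic marker list with 4 of 5 lower and a median of -0.28. Cacng5 was 1.32-fold higher and Cacna1b, the gene of a presynaptic calcium channel, 1.45-fold lower at a dim level of -4.30 in Il18+/+. These genes were named after their values were seen.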
